A study of Mus musculus with 6 samples.

Results

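Metalloproteases and their inhibitors were read in whole kidneys of E17.5 mouse embryos, in 3 Six2Cre Brg1flx/flx (mutant) kidneys and 3 Brg1 flx/flx (control) kidneys. By the sample labels, all 6 samples carried floxed alleles of Brg1, the motor subunit of SWI/SNF chromatin remodellers that is encoded by Smarca4, and the mutant labels alone name Six2Cre. Nephron progenitors are marked by the transcription factor Six2, and the ureteric, stromal and vascular cells of the organ lie outside their lineage. The series text calls the control kidneys wild type, and the sample labels were followed here. No group carries Six2Cre without floxed alleles here, so effects of the deletion and of Six2Cre itself cannot be told apart. RNA was taken from whole kidneys, in which more cells of a type and more RNA per cell cannot be told apart, and the labels do not say whether the 3 kidneys of a group came from separate embryos, so p-values measure only the spread between these samples. The members were all genes of the full expression table whose symbol is Adam, Adamts, Adamtsl or Mmp followed by a number, or Timp1 to Timp4. This gave 43 of 13203 genes, with 3 Timp, 10 Mmp, 17 Adamts, 4 Adamtsl and 9 Adam genes. The GENCODE M21 annotation holds 83 protein-coding genes with such symbols, and the other 40, among them Timp4, Mmp3, Mmp13 and Adam8, were not analysed here.

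Matrix metalloproteases (MMPs) are zinc-dependent enzymes that are made as inactive precursors and cut collagens, gelatins, proteoglycans and cell surface proteins. ADAM proteins are membrane-bound relatives that release the outer part of growth factors, Notch receptors and adhesion molecules from the cell surface, ADAMTS proteins are secreted and cut proteoglycans and procollagens, and ADAMTS-like proteins carry the ancillary domains of ADAMTS proteins without a protease domain. Tissue inhibitors of metalloproteases (TIMPs) bind the active site of these enzymes. In the developing kidney the matrix is remodelled around the branching ureteric bud, the stroma and the forming glomeruli.

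Expression was given as normalised coverage, the number of sequenced bases over a gene scaled by the authors to a near equal library total. Levels are in kb of scaled bases, fold changes are mutant over control from log2(value + 1), each with its standard error (SE) from limma, and a gene was called at a limma adjusted p under 0.05 over all genes. Libraries are named mut1 to mut3 and con1 to con3. Before scaling they held 934 to 1209 Mb in mutant and 726 to 1126 Mb in control. The targeted gene Smarca4 had 316, 333 and 268 kb in the mutant libraries, against 434, 419 and 371 kb in the control libraries, and was lower in all 3 mutant libraries (log2 fold change -0.42, SE 0.10, limma adjusted p = 0.00481). Its coverage spans the whole gene and does not isolate a floxed part. Of the 5 listed nephron progenitor markers all fell, with summed coverage of 176 to 274 kb in mutant and 405 to 456 kb in control. The 5 proximal tubule markers all fell as well, at 609 to 734 kb in mutant and 2868 to 3610 kb in control. Over all genes 24.6% fell.

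Most metalloprotease and inhibitor genes rose in mutant kidneys. Of the 43 members 30 rose, 2 fell and 11 did not pass, where 21.5% of all genes rose and 24.6% fell, 46.1% together. The median log2 fold change of the members was 0.84, and that of all genes was -0.03. At least 2-fold changes were found in 13 members that rose and in 1 that fell, against 5.58% and 6.16% of all genes. All 3 mutant values lay above all 3 control values in 31 members and below them in 3, where the shares over all genes were 26.5% and 29.8%. By subfamily, 8 of 10 Mmp genes, 13 of 17 Adamts genes, 4 of 4 Adamtsl genes, 3 of 9 Adam genes and 2 of 3 Timp genes rose, with median log2 fold changes of 0.98, 0.89, 1.48, 0.01 and 0.31. Adamts16 and Adam22 were the members that fell, and without con2 the number that fell was 1.

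The table keeps a gene only where the higher of its group means was above 3400 scaled bases. Adamtsl3, Mmp9, Mmp19 and Mmp28 passed this minimum through their mutant mean alone and so had to differ in their means, and Adam11 passed through its control mean alone. Among the 38 members with both means above the minimum, 27 rose and 2 fell, where 20.6% and 24.1% of the 12360 genes that met the same condition did so, 44.7% together.

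**Figure D1:**
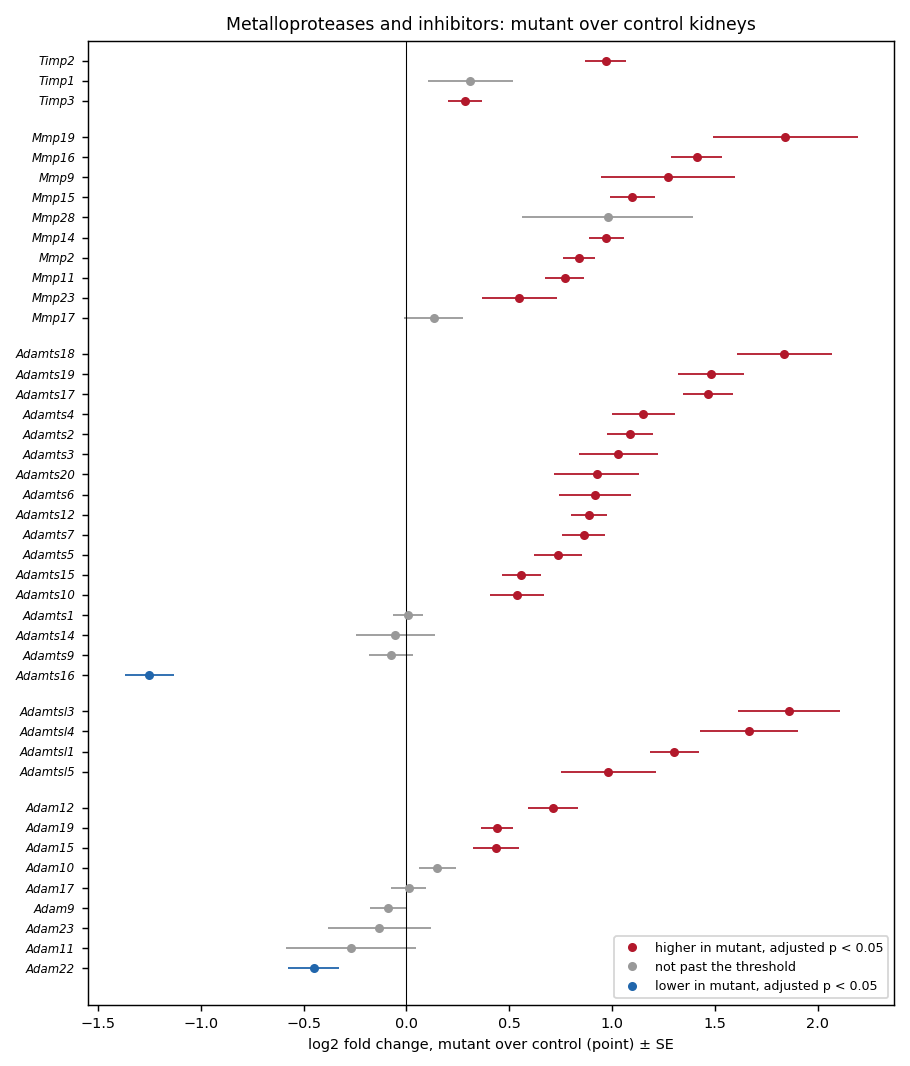
Log2 fold change of each of the 43 members, mutant over control, with points for the limma estimate and bars for its SE, grouped from top to bottom as Timp, Mmp, Adamts, Adamtsl and Adam. Red marks the 30 members that rose, blue the 2 that fell (Adamts16 and Adam22) and grey the 11 that did not pass an adjusted p of 0.05.

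The 3 inhibitors differed in how far they moved. Timp2 (chromosome 11, 118301069 to 118355740, minus strand, mm10), which inhibits MMPs and also takes part in the activation of the Mmp2 precursor at the cell surface, had 148, 139 and 166 kb in mutant kidneys, against 69.3, 82.0 and 80.5 kb in control kidneys. The groups did not overlap, and Timp2 rose 1.96-fold (log2 fold change 0.97, SE 0.10, limma adjusted p = 2.11e-05). Timp3 (chromosome 10, 86300372 to 86349506, plus strand), a matrix-bound inhibitor that also acts on ADAM17 and on ADAMTS enzymes, had 332, 359 and 385 kb in mutant and 287, 283 and 310 kb in control. It rose 1.22-fold (0.29, SE 0.08, limma adjusted p = 0.0145), without overlap. The call of Timp3 was lost without con1 (limma adjusted p = 0.0593), con2 (0.0681) or mut3 (0.0595), without the variance trend (0.0519) and with the p-values of the authors' deposited table adjusted by Benjamini-Hochberg (0.0594), over a range of 0.00359 to 0.0681. Exons of Timp3 share 1733 bases with annotated exons of Syn3 on the other strand, a gene that itself had 22.0 ± 2.58 kb in mutant and 23.3 ± 2.72 kb in control (SD, n = 3 each). Timp1, a soluble inhibitor induced in injured tissue, had 7.75, 7.17 and 7.51 kb in mutant against 5.48, 7.10 and 5.62 kb in control. All mutant values were above the control values, but the closest pair of values differed little and the gene did not pass (log2 fold change 0.31, SE 0.21, limma adjusted p = 0.237). It passed in 1 alternative, which took out trends with length and GC (limma adjusted p = 0.0214), and the range over its alternatives was 0.0214 to 0.461.

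Both gelatinases rose. Mmp2 (chromosome 8, 92827291 to 92853420, plus strand), which cuts denatured collagen and type IV collagen and is made mainly by mesenchymal cells, had 428, 381 and 428 kb in mutant and 235, 229 and 226 kb in control. The lowest mutant value was far above the highest control value, and the fold change was 1.79 (log2 0.84, SE 0.08, limma adjusted p = 1.03e-05). Mmp9, known from neutrophils, macrophages and osteoclasts, was low, with 6.75, 5.42 and 7.50 kb in mutant and 3.65, 1.71 and 3.13 kb in control (log2 fold change 1.27, SE 0.33, limma adjusted p = 0.00804). Of 7 neutrophil markers 1 had a row, S100a9, which met the table minimum through its mutant mean alone. It spanned 2.0 to 4.79 kb in mutant and 0.936 to 6.67 kb in control and was not called. Of 6 macrophage markers 4 had rows and all 4 rose, where 21.5% of all genes rose. The 4 markers summed to 150 to 164 kb in mutant and 67.0 to 69.0 kb in control. The part of these cells in the rise of Mmp9 was not tested.

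Of the 4 membrane-type MMPs with rows, 3 rose, where 21.5% of all genes rose, and the fourth did not pass. Mmp14 (chromosome 14, 54431612 to 54445364, plus strand) encodes MT1-MMP, a collagenase of the cell surface that activates the Mmp2 precursor together with Timp2. It had 316, 291 and 342 kb in mutant and 155, 156 and 171 kb in control, a 1.96-fold rise without overlap (log2 0.97, SE 0.09, limma adjusted p = 7.38e-06). Mmp15, which encodes the related MT2-MMP, had 154, 115 and 141 kb in mutant against 63.3, 61.1 and 65.4 kb in control, a 2.14-fold rise in which mut2 was the lowest mutant library (log2 1.10, SE 0.11, limma adjusted p = 1.596e-05). Mmp16 (MT3-MMP) rose 2.66-fold, the highest fold among the 4, with 43.6, 45.5 and 51.2 kb in mutant and 16.5, 19.7 and 16.6 kb in control (log2 1.41, SE 0.12, limma adjusted p = 6.64e-06). Mmp17, which encodes a form held by a lipid anchor and not by a membrane-spanning stretch, had 27.0, 34.2 and 27.3 kb in mutant and 28.7, 22.7 and 29.3 kb in control. Its groups overlapped (log2 0.13, SE 0.14, limma adjusted p = 0.470), and once trends with length and GC were taken out its log2 fold change was -0.07 at adjusted p = 0.739.

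Among the other MMPs, Mmp11 (stromelysin-3), a stromal enzyme activated inside the cell by furin, rose 1.70-fold, with 105, 90.9 and 91.1 kb in mutant and 54.1, 55.1 and 58.7 kb in control. Mmp19 had 9.37, 6.27 and 7.71 kb in mutant and 3.36, 1.35 and 2.16 kb in control (log2 fold change 1.84, SE 0.35, limma adjusted p = 0.00135). Its exons share 789 bases with exons of Tmem198b on the other strand, which also rose, at 48.8 ± 2.77 kb in mutant and 35.0 ± 4.72 kb in control (SD, n = 3 each), and the use of strand in the authors' processing is not given in the sources used here. Mmp23, an MMP without the hemopexin domain, averaged 16.5 ± 1.46 kb in mutant and 11.4 ± 2.43 kb in control (SD, n = 3 each; log2 0.55, limma adjusted p = 0.0272), a call lost without con1 (0.119), mut1 (0.0815) and with the adjusted p-values of the authors' deposited table (0.0845) over a range of 0.0107 to 0.119. Mmp28 (epilysin) averaged 4.45 ± 1.58 kb in mutant and 2.35 ± 1.22 kb in control with overlapping groups and did not pass (log2 0.98, SE 0.41, limma adjusted p = 0.0730). Without con2 it passed (limma adjusted p = 0.0232, over a range of 0.0232 to 0.241).

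Ratios of Mmp14 and Mmp2 to Timp2, the parts of the Mmp2 activation complex, overlapped between the groups. Among 6 ratios that were chosen after their values were seen, Mmp14 to Timp2 coverage was 2.13, 2.10 and 2.05 in mutant libraries and 2.24, 1.91 and 2.13 in control libraries (exact two-sided permutation test of log ratios, p = 0.9, adjusted p = 0.9). The Mmp2 to Timp2 ratio was 2.89, 2.74 and 2.57 in mutant and 3.39, 2.79 and 2.81 in control (exact p = 0.4, adjusted p = 0.48). The Timp3 to Timp2 ratio was 2.24, 2.59 and 2.31 in mutant against 3.45 to 4.14 in control, without overlap, and the Mmp2 to Timp3 ratio was 1.06 to 1.29 in mutant against 0.729 to 0.819 in control. For both the exact p was 0.1, the smallest that 3 against 3 values allow, and 0.2 after adjustment over the 6 ratios. A miss of the threshold does not show that ratios were equal. Summed per transcript base over the subfamily, the Mmp genes reached 331 ± 21.1 in mutant and 179 ± 3.45 in control, and the Timp genes 125 ± 8.52 in mutant and 89.9 ± 4.08 in control (SD, n = 3 each), which are 1.85 and 1.39 times the control sums.

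**Figure D2:**
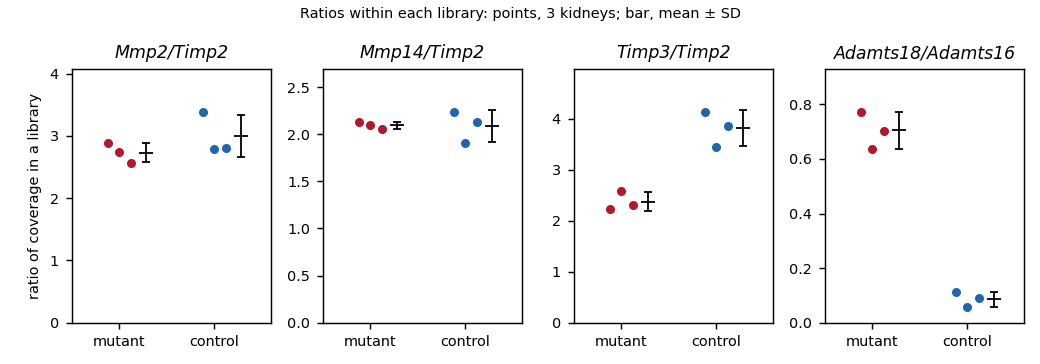
Ratio of the coverage of 2 genes within each library, with points for the 3 mutant (left, red) and 3 control (right, blue) kidneys and bars for mean ± SD. The groups overlap for Mmp2/Timp2 and Mmp14/Timp2, and they are apart for Timp3/Timp2 (2.24 to 2.59 in mutant, 3.45 to 4.14 in control) and Adamts18/Adamts16 (0.636 to 0.774 in mutant, 0.0562 to 0.112 in control).

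Upstream sequences are given for genes that moved side by side, Mmp14 and Timp2, with GC boxes (GGGCGG on either strand) in capitals. They are the 250 bases before the RefSeq start site on GRCm38.p6, written 5′ to 3′ along the gene's strand, at chr14:54431348-54431597 (plus strand) for Mmp14 and chr11:118355412-118355661 (minus strand) for Timp2.
Mmp14: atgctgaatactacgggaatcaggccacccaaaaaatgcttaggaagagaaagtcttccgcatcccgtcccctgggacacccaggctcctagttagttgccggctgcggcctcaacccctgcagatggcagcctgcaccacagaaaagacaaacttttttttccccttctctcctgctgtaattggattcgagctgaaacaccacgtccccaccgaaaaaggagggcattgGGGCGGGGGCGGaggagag
Timp2: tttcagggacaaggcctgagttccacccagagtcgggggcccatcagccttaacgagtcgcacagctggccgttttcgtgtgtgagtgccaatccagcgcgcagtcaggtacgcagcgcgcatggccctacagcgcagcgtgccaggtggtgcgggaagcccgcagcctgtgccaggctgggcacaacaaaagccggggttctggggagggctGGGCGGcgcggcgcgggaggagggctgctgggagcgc
The Mmp14 window held 2 GC boxes, at 19 and 13 bases before the start, and the Timp2 window held 1, at 37 bases. Neither held a TATA box (TATAAA). RefSeq windows were found for 26 of the 43 members, at 29 start sites, and of these windows 20 held a GC box, against 32.7% of the 32851 windows of all genes. A TATA box stood in 1 member window (Adamts1), against 12.4% of all windows, and an AP-1 site (TGANTCA), known from the promoters of several collagenase genes, in 1 (Adam19), against 6.75%. Counts for 5 more motifs were 7 windows for CCAAT (33.9% of all windows), 9 for the E-box CACCTG (17.2%), 2 for the TEAD site GGAATG (12.6%), 1 for the ETS site GAGGAA (23.3%) and 0 for TGACGTCA (1.55%). Both strands were searched, a match is a description of letters and not a bound site, and the windows with and without a match were not compared for expression.

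**Figure D3:**
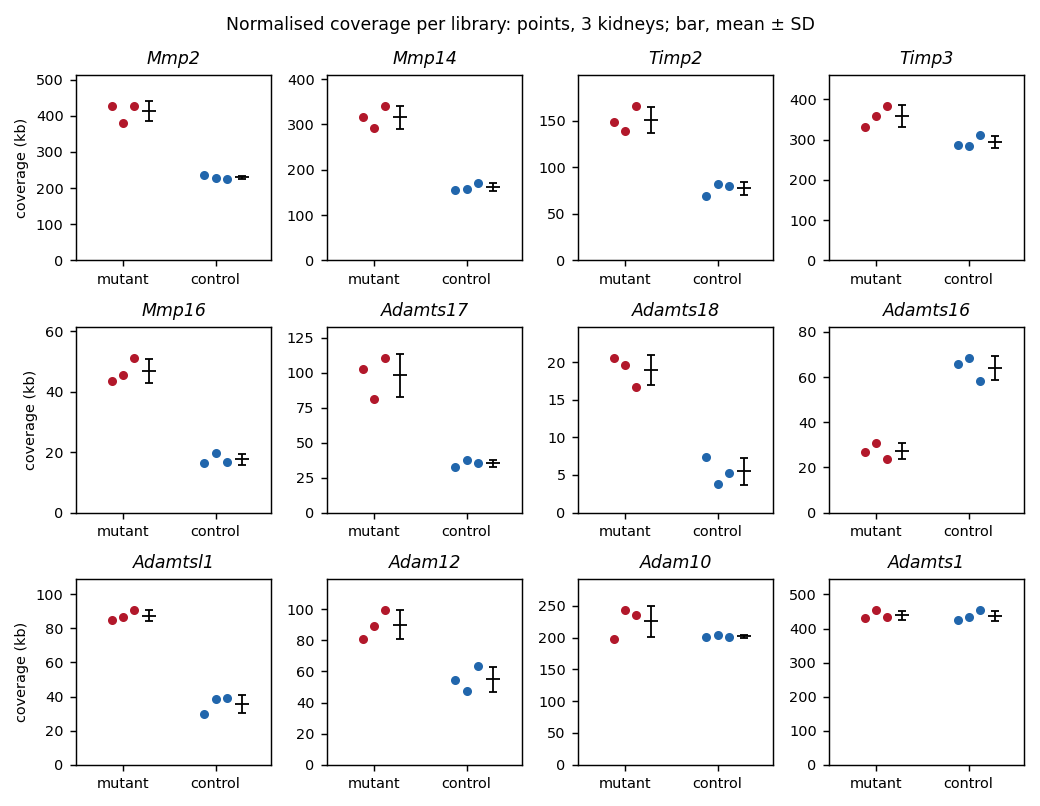
Normalised coverage (kb, axes from 0) of 12 members in each library, with points for the 3 mutant (left, red) and 3 control (right, blue) kidneys and bars for mean ± SD. Mmp2, Mmp14, Timp2, Timp3, Mmp16, Adamts17, Adamts18, Adamtsl1 and Adam12 lie higher in mutant without overlap, Adamts16 lies lower, and Adam10 and Adamts1 overlap between the groups.

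Of the 6 ADAMTS enzymes with rows that are known to cut versican, aggrecan or related proteoglycans, 4 rose, where 21.5% of all genes rose. The 2 with the most coverage, Adamts1 and Adamts9, did not pass. Adamts1 (chromosome 16, 85793827 to 85803113, minus strand), which is needed for the normal shape of the urinary tract in mice, had 431, 455 and 432 kb in mutant and 424, 433 and 455 kb in control, with overlapping groups (log2 fold change 0.01, SE 0.07, limma adjusted p = 0.939). Adamts9 had 199, 197 and 261 kb in mutant and 227, 229 and 231 kb in control (log2 -0.07, SE 0.11, limma adjusted p = 0.597), where mut3 lay above and mut1 and mut2 below all control libraries. The other 4 of this class rose without overlap. Adamts4 rose 2.22-fold (36.8 ± 4.91 kb in mutant, 16.6 ± 2.75 kb in control), Adamts5 1.67-fold (83.7 ± 4.88 and 50.5 ± 7.41 kb), Adamts15 1.47-fold (94.3 ± 3.89 and 64.1 ± 5.50 kb) and Adamts20, whose loss gives the belted coat of mice, 1.90-fold (11.2 ± 2.22 and 5.83 ± 0.379 kb), each with the mutant mean first (SD, n = 3 each). Adamts1 and Adamts5 are neighbours on chromosome 16.

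Of the 3 procollagen N-proteinases, which remove the amino-terminal propeptides of fibrillar procollagens, 2 rose, where 21.5% of all genes rose. Adamts2 had 43.7, 38.2 and 41.0 kb in mutant and 19.3, 19.1 and 19.3 kb in control, a 2.13-fold rise (limma adjusted p = 1.85e-05). Adamts3, which also acts on the lymphatic growth factor VEGF-C, rose 2.04-fold, at 13.6 ± 1.603 kb in mutant and 6.67 ± 1.09 kb in control. Adamts14 did not pass, at 9.93 ± 1.59 kb in mutant and 10.3 ± 1.38 kb in control (SD, n = 3 each; limma adjusted p = 0.837). Adamts7 and Adamts12, which both cut cartilage oligomeric matrix protein, rose by nearly the same factor, 1.82 and 1.85, at 66.7 ± 6.49 and 110.1 ± 7.24 kb in mutant against 36.6 ± 1.87 and 59.4 ± 0.596 kb in control. Exons of Adamts7 share 122 bases with exons of Tbc1d2b on the other strand, which rose too (141.7 ± 4.86 kb in mutant, 103.9 ± 8.25 kb in control). Overlaps with genes that fell were 155 bases between Mmp11 and Chchd10 and 311 between Adam17 and Iah1.

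The largest changes among the ADAMTS enzymes, in both directions, were in members whose substrates are poorly known. Adamts18 (chromosome 8, 113697126 to 113848738, minus strand), known from the tips of branching epithelia in the embryo, had 20.6, 19.6 and 16.7 kb in mutant and 7.37, 3.86 and 5.20 kb in control (3.58-fold, log2 1.84, SE 0.23, limma adjusted p = 7.94e-05). Its close relative Adamts16 (chromosome 13, 70727802 to 70841811, minus strand), a gene linked to blood pressure in rats, was the only ADAMTS gene of the table to fall, with 26.6, 30.8 and 23.8 kb in mutant and 65.6, 68.6 and 58.4 kb in control (log2 -1.25, SE 0.12, limma adjusted p = 1.32e-05). The groups were apart for both genes and in opposite directions. The Adamts18 to Adamts16 ratio was 0.774, 0.636 and 0.703 in mutant and 0.112, 0.0562 and 0.0890 in control (exact two-sided p = 0.1, adjusted p = 0.2). Of the 6 ureteric epithelium markers 2 rose, Wnt7b and Gata3, where 21.5% of all genes rose. The other 4, Ret, Wnt11, Krt8 and Calb1, did not pass. Their summed coverage, all 6 together, was 516 to 608 kb in mutant and 386 to 478 kb in control. Much of this difference lay in Wnt7b, at 121 ± 15.2 kb in mutant and 54.4 ± 2.99 kb in control (SD, n = 3 each). The part of such cells in the rise of Adamts18 was not tested.

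Adamts17 and Adamts19 rose by similar factors, 2.76 and 2.79. Adamts17 (chromosome 7, 66839735 to 67153171, plus strand), mutated in a Weill-Marchesani-like syndrome of short stature and lens dislocation, had 103, 80.9 and 111 kb in mutant and 32.7, 37.5 and 35.5 kb in control (limma adjusted p = 5.16e-06). Adamts19, known from heart valves, had 21.1, 22.5 and 28.9 kb in mutant and 8.03, 9.12 and 8.60 kb in control (limma adjusted p = 2.98e-05). Adamts10, the Weill-Marchesani gene whose product binds fibrillin microfibrils, rose less, at 92.1 ± 13.8 kb in mutant and 63.4 ± 8.83 kb in control (SD, n = 3 each; 1.45-fold, limma adjusted p = 0.00565). This call was lost with the adjusted p-values of the authors' deposited table (0.0887, over a range of 0.00376 to 0.0887). Adamts6, its closest relative, rose 1.89-fold, at 22.9 ± 3.49 kb in mutant and 12.2 ± 2.31 kb in control.

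Upstream windows of an ADAMTS gene that rose and of the one with the most coverage, which did not pass, are shown for contrast, with GC boxes and the TATA box in capitals. They lie at chr8:113848840-113849089 (minus strand) for Adamts18 and chr16:85803114-85803363 (minus strand) for Adamts1, on GRCm38.p6 from RefSeq start sites.
Adamts18: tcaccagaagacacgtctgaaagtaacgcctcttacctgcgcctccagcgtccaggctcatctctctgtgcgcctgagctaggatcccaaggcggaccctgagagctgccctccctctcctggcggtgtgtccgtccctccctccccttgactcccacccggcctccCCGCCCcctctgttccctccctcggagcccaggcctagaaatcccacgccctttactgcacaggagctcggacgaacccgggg
Adamts1: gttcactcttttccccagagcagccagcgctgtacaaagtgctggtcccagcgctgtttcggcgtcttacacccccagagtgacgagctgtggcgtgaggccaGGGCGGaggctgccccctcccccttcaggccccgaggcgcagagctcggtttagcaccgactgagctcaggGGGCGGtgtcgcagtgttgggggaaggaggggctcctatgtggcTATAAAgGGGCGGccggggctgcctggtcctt
The Adamts18 window held 1 GC box on the reverse strand and no TATA box. The Adamts1 window held 3 GC boxes and a TATA box that began 32 bases before the start site.

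All 4 ADAMTS-like genes with rows rose without overlap between the groups, and Adamtsl2 had no row. Over all genes 21.5% rose, and 26.5% had all 3 mutant values above all 3 control values. Adamtsl1 (punctin) had 84.9, 86.7 and 90.8 kb in mutant and 29.5, 38.7 and 39.0 kb in control (2.47-fold, log2 1.30, SE 0.12, limma adjusted p = 8.77e-06). Adamtsl3, a relative of punctin, had 12.7, 8.72 and 10.2 kb in mutant and 2.83, 3.44 and 2.40 kb in control (3.63-fold, limma adjusted p = 0.000128). Its control mean lay under the table minimum. Adamtsl4, whose product binds fibrillin and is mutated in isolated lens dislocation, had 14.5, 10.4 and 15.3 kb in mutant and 3.997, 3.39 and 5.34 kb in control (3.17-fold, limma adjusted p = 0.000205). Adamtsl5 had 7.85, 6.44 and 7.57 kb in mutant and 3.50, 3.51 and 4.05 kb in control (1.98-fold, limma adjusted p = 0.00480). None of the 4 encodes an active protease.

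Of the ADAM genes, the main sheddases did not pass. Adam10, the main enzyme of Notch receptor cleavage, had 197, 243 and 235 kb in mutant and 201, 204.5 and 200.4 kb in control, so that mut1 lay below and mut2 and mut3 above all control libraries (log2 fold change 0.15, SE 0.09, limma adjusted p = 0.196). It passed without mut1 (limma adjusted p = 0.0192) and once trends with length and GC were taken out (0.0101), where its alternatives spanned 0.0101 to 0.461. Adam17, which sheds tumour necrosis factor and ligands of the EGF receptor, averaged 127.6 ± 6.93 kb in mutant and 126.7 ± 7.46 kb in control (log2 0.01, limma adjusted p = 0.929). Adam9 averaged 56.5 ± 2.43 kb in mutant and 60.1 ± 0.314 kb in control, with all mutant values below the control values but no call (log2 -0.09, limma adjusted p = 0.441). The Adam10 to Adam17 ratio averaged 1.77 ± 0.225 in mutant and 1.599 ± 0.0923 in control (SD, n = 3 each; exact two-sided permutation p = 0.3, adjusted p = 0.45).

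The 3 ADAM genes that rose, Adam12, Adam19 and Adam15, encode proteins with an active site. Adam9, Adam10 and Adam17 encode such proteins too and did not pass. Adam12 (meltrin alpha), known from muscle and mesenchyme, had 80.9, 89.6 and 99.6 kb in mutant and 54.5, 47.4 and 63.3 kb in control (1.64-fold, limma adjusted p = 0.000644). Adam19 (meltrin beta), known from heart and nerve development, had 206, 216 and 196 kb in mutant and 154, 151 and 151 kb in control (1.36-fold, limma adjusted p = 0.000780). Adam15 had 38.5, 33.8 and 35.8 kb in mutant and 24.5, 27.9 and 27.5 kb in control (1.35-fold, limma adjusted p = 0.00860). The 3 ADAM genes whose products lack an active site and act mainly as binding proteins of nerve cells gave no rise. Adam22, a receptor of secreted LGI proteins, had 34.8, 42.3 and 32.3 kb in mutant and 45.6, 53.3 and 50.05 kb in control (log2 -0.45, SE 0.12, limma adjusted p = 0.0107), a call lost without con2 (0.0529) and with the adjusted p-values of the authors' deposited table (0.0660) over a range of 0.00172 to 0.0660. Adam23 averaged 5.18 ± 0.748 kb in mutant and 5.72 ± 1.15 kb in control, and Adam11 3.29 ± 0.532 kb in mutant and 4.06 ± 1.23 kb in control (SD, n = 3 each), and neither passed (limma adjusted p = 0.694 and 0.512).

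Levels of different genes can be set side by side only per length, so coverage was divided by the length of the longest protein-coding transcript in GENCODE M21, giving mean scaled depth per transcript base. In mutant kidneys Mmp2 stood highest (134 ± 8.95), followed by Mmp14 (97.6 ± 7.83), Adamts1 (89.98 ± 2.69), Timp3 (75.9 ± 5.60) and Adam10 (49.0 ± 5.37) (SD, n = 3), and of these neighbours Mmp14 and Adamts1 overlapped. In control kidneys Adamts1 stood highest (89.5 ± 3.24), followed by Mmp2 (74.7 ± 1.45), Timp3 (62.2 ± 3.13), Mmp14 (49.7 ± 2.74) and Adam10 (44.0 ± 0.472) (SD, n = 3), and no neighbours in this order overlapped. The first 5 genes were the same in both groups, in another order. Adamts16 ranked 27 of 43 in mutant and 13 in control, and Adamts17 ranked 14 in mutant and 22 in control. The lowest levels per base were those of Adam11 in mutant (0.645 ± 0.104) and Adamtsl3 in control (0.399 ± 0.0721). These depths depend on the transcript chosen and not on a measured isoform.

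**Figure D4:**
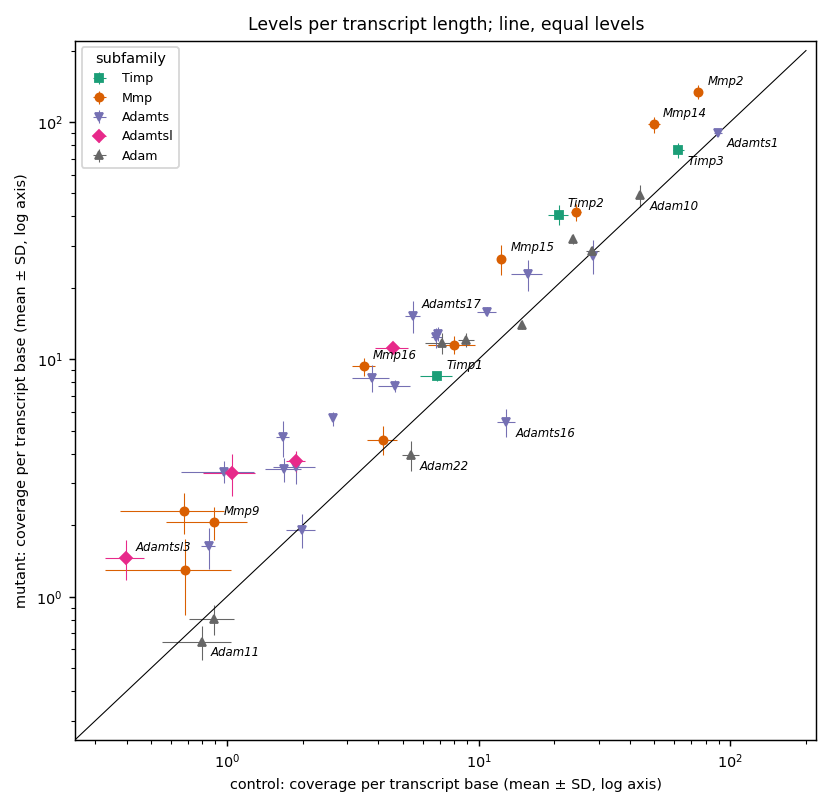
Coverage per base of the longest protein-coding transcript, mutant (vertical) against control (horizontal), both on log axes, with mean ± SD of 3 kidneys per group and a symbol for each subfamily. Most points lie above the line of equal levels, Adamts1 and Adam10 lie near it, and Adamts16 (5.44 in mutant, 12.9 in control) lies farthest below it.

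Other genes of the same biology were read from fixed lists. Of 14 listed regulators of secreted metalloproteases 12 had rows, of which 8 rose and 2 fell, with a median log2 fold change of 0.59, where 21.5% of all genes rose and 24.6% fell. Spock1 and A2m passed the table minimum through their mutant mean alone and so had to differ, and among the other 10 genes 6 rose and 2 fell, with a median of 0.36. Spock1, a testican proteoglycan that inhibits some MMPs, had 24.0, 21.4 and 17.7 kb in mutant and 0.420, 0.706 and 0.151 kb in control (log2 5.88, SE 0.50, limma adjusted p = 5.82e-06). Its relative Spock2 had 687, 542 and 421 kb in mutant and 233, 251 and 223 kb in control, and the broad protease inhibitor A2m rose to 4.47 ± 1.05 kb in mutant, against 1.01 ± 0.104 kb in control. Reck, a membrane-anchored MMP inhibitor, and Lrp1, the receptor that clears MMPs, TIMPs and ADAMTS enzymes, were named after their values were seen. They reached 154.8 ± 12.2 and 849 ± 16.8 kb in mutant, against 88.1 ± 11.3 and 399 ± 12.6 kb in control. The 2 regulators that fell were Papln and Pcsk7. They averaged 16.6 ± 4.19 and 53.2 ± 0.771 kb in mutant, against 35.2 ± 1.70 and 65.9 ± 3.11 kb in control. Of 9 listed partner proteins of ADAM10 and ADAM17, the tetraspanins and iRhoms among them, 7 had rows, Tspan33 through its control mean alone, and limma called 0, with log2 fold changes of -0.48 to 0.26 and 1 gene at an unadjusted limma p under 0.05.

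Of 17 listed metalloproteases of other families 11 had rows, 2 rose and 4 fell, with a median log2 fold change of 0.06. Over all genes 21.5% rose and 24.6% fell, and the shares of these few genes were not tested against them. Mep1a and Mep1b, the meprin subunits of the proximal tubule brush border, had 114 ± 8.84 and 13.0 ± 0.497 kb in mutant, against 342 ± 29.4 and 69.4 ± 10.1 kb in control. Pappa, which cuts insulin-like growth factor binding proteins, rose to 105 ± 10.5 kb in mutant, against 34.4 ± 3.14 kb in control. In the plasminogen system, which activates several MMP precursors, 8 of 10 listed genes had rows, 2 rose and 2 fell, shares near the 21.5% and 24.6% of all genes. Plau (urokinase) had 78.2, 75.1 and 74.5 kb in mutant and 138, 133 and 157 kb in control (limma adjusted p = 1.50e-05), and Serpinf2, the plasmin inhibitor, averaged 21.01 ± 6.74 kb in mutant and 119 ± 30.6 kb in control. St14 (matriptase) rose to 86.2 ± 12.5 kb in mutant, against 63.95 ± 1.92 kb in control.

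Of 21 listed matrix substrates of these enzymes 19 had rows, 13 rose and 2 fell, with a median log2 fold change of 0.76, where 21.5% of all genes rose and 24.6% fell. Ncan passed the table minimum through its mutant mean alone, and among the other 18 genes 12 rose and 2 fell, with a median of 0.73. Dcn (decorin) averaged 263 ± 38.2 kb in mutant and 116 ± 8.42 kb in control, Ncan (neurocan) 5.89 ± 1.22 kb in mutant and 1.85 ± 0.389 kb in control, and Col2a1, the cartilage collagen, 15.5 ± 2.41 kb in mutant and 63.2 ± 7.03 kb in control. Vcan (versican), the main substrate of the ADAMTS proteoglycanases and named after its values were seen, averaged 1612 ± 90.5 kb in mutant and 800.3 ± 54.5 kb in control. Beside Col2a1, the substrate gene that fell was Col4a1, of type IV collagen. It averaged 2858 ± 477 kb in mutant and 3913 ± 248 kb in control (limma adjusted p = 0.00627). Of 21 listed substrates of ADAM shedding 16 had rows, 4 rose and 5 fell, with a median of -0.05, shares near those of all genes. Egf passed the minimum through its control mean alone, and among the other 15 genes 4 rose and 4 fell. Kl (klotho) averaged 16.0 ± 0.328 kb in mutant and 115.5 ± 12.5 kb in control, Egf 1.26 ± 0.574 kb in mutant and 5.87 ± 1.18 kb in control, and the Notch ligand Dll1 20.99 ± 1.91 kb in mutant and 64.6 ± 4.63 kb in control.

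**Figure D5:**
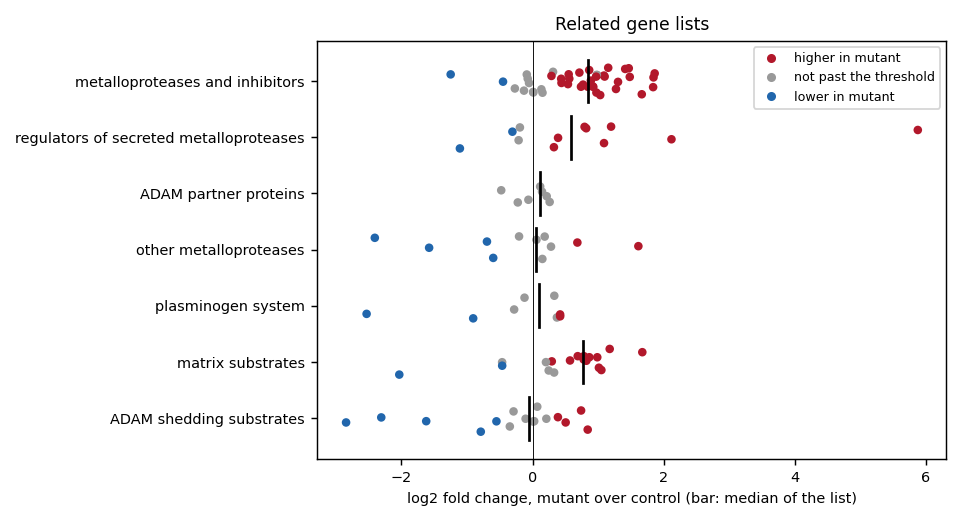
Log2 fold change, mutant over control, of the members and of the listed related genes that had rows, with 1 point per gene, coloured by call, and a bar at each list's median. The medians are 0.84 for the members, 0.59 for regulators, 0.12 for ADAM partners, 0.06 for other metalloproteases, 0.10 for the plasminogen system, 0.76 for matrix substrates and -0.05 for shedding substrates.

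The rise of the members was accompanied by higher markers of several cell types outside the nephron. Of 6 stroma markers 5 rose, where 21.5% of all genes rose and 24.6% fell. The 6 stroma markers summed to 3324 to 3780 kb in mutant and 1110 to 1205 kb in control. Most of this difference lay in Fat4, at 2023 ± 125 kb in mutant and 452 ± 28.9 kb in control (SD, n = 3 each). Pdgfrb, the marker that did not pass, differed 1.14-fold (limma adjusted p = 0.0556). Of 5 smooth muscle markers 5 rose, at 680 to 1102 kb in mutant and 350 to 459 kb in control, and of 5 endothelial markers 3 rose, at 1169 to 1183 kb in mutant and 944 to 1010 kb in control. Among the markers, Actg2 of smooth muscle passed the table minimum through its mutant mean alone, and Meox2 of nephron progenitors, Slc13a3 and Miox of the proximal tubule and Myh3 of skeletal muscle through their control mean alone. All 5 podocyte markers fell, at 421 to 495 kb in mutant and 1083 to 1198 kb in control. Markers of skeletal muscle (2 of 5 with rows) and of neurons and glia (3 of 5 with rows) gave no call, at 3.58 to 19.9 kb and 11.4 to 15.2 kb in mutant against 1.42 to 52.9 kb and 11.5 to 21.3 kb in control. The part of these cell types in the changes of the members was not tested.

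In the authors' deposited table, 13 members stand in the list of higher genes (ratio above 2, q under 0.05) and 1, Adamts16, in the list of lower genes, where these lists hold 5.49% and 5.91% of all genes. Adam9 (q = 0.0397) and Timp1 (q = 0.0375) were the only members with a q under 0.05 there that limma did not call here.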

How the data were processed

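RNA of whole E17.5 kidneys was sequenced from 3 mutant and 3 control samples, grouped by their genotype labels. Values of the authors' deposited table are normalised coverage, a signal that, from the values, is bases covered per gene plus 1, scaled by the authors to a near equal library total and not divided by gene length. Per the submitters' processing notes the build was mm10 and bedtools was used, and the aligner, annotation and strand use are not given in the sources used here. A ratio of the group means, p-values and q-values stand beside the values in the authors' deposited table, and their test is likewise not given. The number of reads is unknown, so no counting interval was made, and precision rests on 3 libraries a group.

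Fold changes and p-values were computed with limma 3.58.1 in R 4.3.3 (moderated test with a mean-variance trend) on log2(value + 1), with Benjamini-Hochberg adjustment over all 13203 genes and a threshold of 0.05, and the procedure was tested on simulated data. Symbols were matched to GENCODE M21 (12461 directly, 656 by synonym, 86 not), which gave coordinates, lengths and overlaps. Upstream windows of 250 bases came from RefSeq on GRCm38.p6. Ratios of 2 genes were compared with exact permutation tests.

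The members and lists were chosen with earlier results of these data known. The macrophage list held 1 gene under 2 symbols, Emr1 and Adgre1, which was counted once. Every member is named. Values per library were to be given for all Timp genes, for the 4 called genes with the largest change and the 2 with the highest coverage in each subfamily, and from each list up to 3 called genes with the largest change were to be named. Other genes given in full were chosen after their values were seen. Alternatives were a pseudocount of 1000, 2 other normalizations, a minimum mean of 10000, no trend, array weights, adjusted p-values of the authors' deposited table, each library left out and, added after seeing the data, removal of length and GC trends. Protein sequences were not used here, so no members were split by a protein motif.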

Additional observations from a re-analysis of the deposited data

How the results depend on the processing

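Of the 32 called members 28 kept their call and direction under each of the 14 alternatives that could be run for them, and Timp3, Mmp23, Adamts10 and Adam22 did not. The number of members that fell was 1 with the adjusted p-values of the authors' deposited table and 1 to 2 with each library left out. The number of Timp genes that rose was 1 without the variance trend, 1 with the adjusted p-values of the authors' deposited table and 1 to 2 with each library left out. The number of Adamtsl genes that rose was 1 among genes with a mean of at least 10000, where fewer genes were tested. Reversals were seen in members that did not pass. Adam17 had log2 fold changes of -0.018 with array weights and -0.030 to 0.055 with each library left out, Adam23 -0.281 to 0.013, Adamts14 -0.165 to 0.085 and Adamts1 -0.017 to 0.037. With length and GC trends removed, an alternative chosen after seeing the data, Adamts1 had -0.065 and Mmp17 -0.066. The cause of these changes was not tested. The number of genes called over the full table was 4112 with the adjusted p-values of the authors' deposited table and 6087 with limma, within 1.5 times. The largest shift of the median of all genes was 0.041, with quantile normalization. No paired analysis was possible because the mutant and control samples share no replicate number. Low members such as Mmp9, Mmp19, Mmp28 and Adamtsl3 rest on few kb of coverage, and their control means lie under the table minimum.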
